A study of Homo sapiens with 6 samples.

Results

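Fragments from the 3' end of leucine tRNA were chosen by sequence, 7 of a Leu-CAG type and 8 of a Leu-CAA type. These 15 fragments are among 297 3' tRFs (tRNA-derived fragments that reach the 3' end) and 3443 fragments in all. They were counted by small RNA sequencing in 3 libraries of wild-type A375 cells, an established human melanoma line, and in 3 libraries of A375 cells with a DUS1L knockout. CRISPR/Cas9 editing was followed by clonal selection, but the number of clones behind the 3 knockout libraries is not given, so p-values measure the spread between libraries, which the series' design text calls biological replicates. Wild-type cells were kept alongside and were not targeted at DUS1L, and no other agent or allele is named for either group. DUS1L converts uridine to dihydrouridine in the D-loop of tRNA, at positions 16 and 17. Its own loss could not be checked from a table of tRNA fragments.

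The fragments were chosen by sequence, from 2 starting fragments that had been picked from earlier results on these same counts because they were lower in the knockout. These 2 anchors are tRF-18-HRERXFD2 and tRF-18-HRE9XFD2, both of 18 nt. Every 3' tRF that holds the 13 bases before the CCA end of an anchor, and that ends in CC or CCA, belongs to its type. The knockout contrast was thus used in the choice, and the fold changes of members and of their sums below are descriptions that support nothing by themselves. Calls of members are given only as a count, beside the share of all fragments called. The rule required an end in CC or CCA and set no length, and the 5' fragments of the same tRNA were not part of it.

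A tRNA ends in the bases CCA, which are added after transcription and carry the amino acid. 3' tRFs arise from a cut in the T-loop and keep that end, so that their length shows where the cut fell, while an end in CC lacks the last A. Leucine 3' fragments are known from human cells, and a longer 3' fragment of tRNA-Leu-CAG is known for its pairing with a ribosomal protein mRNA. The sequence of each fragment was read from its MINTbase licence plate, a name that encodes the bases. Positions here follow the usual tRNA numbering, in which the CCA end takes 74 to 76.

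The sequences of the 8 more abundant members, those with a mean of 10 or more counts, show how the types and their forms relate. In capitals are the base that differs between the types and the CC or CCA end. The Leu-CAG type comes first.
tRF-16-K58Y01B: cccactCctgacaCCA
Leu-CAG form of 17 nt: tcccactCctgacaCCA
tRF-18-HRERXFD2: atcccactCctgacaCCA
tRF-17-HRERXFJ: atcccactCctgacaCC
The Leu-CAA type follows.
tRF-16-K5YY01B: cccactTctgacaCCA
tRF-17-86N7O52: tcccactTctgacaCCA
tRF-18-HRE9XFD2: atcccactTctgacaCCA
tRF-17-HRE9XFJ: atcccactTctgacaCC

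The 2 types differ at 1 base, C9T, counted from the 5' end of the 18 nt forms with the Leu-CAG base first. It lies at tRNA position 67 in the acceptor stem, opposite position 6. Within a type the members are nested. The CCA forms of 16, 17 and 18 nt begin at positions 61, 60 and 59, and the CC form of 17 nt begins at position 59, the first base of the 18 nt anchor. The names CAG and CAA come from general knowledge of leucine tRNA and were not read from a reference of 3' ends. RefSeq lists 9 Leu-CAG and 7 Leu-CAA tRNA genes, and which of them carry each end was not checked here.

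The other 7 members were rare, with 38 of the 2549 counts of both types (1.49%), and none was kept for the test. The longest member of the Leu-CAG type, tRF-19-DR29NDE2, begins at position 58 and had 1 count, in wild-type replicate 1.
tRF-19-DR29NDE2: aatcccactCctgacaCCA
The longest member of the Leu-CAA type, tRF-20-OMKIWU26, begins at position 57 and had 1 count in wild-type replicate 2 and 1 in knockout replicate 2.
tRF-20-OMKIWU26: gaatcccactTctgacaCCA
The Leu-CAA form of 19 nt, tRF-19-DR2ZNDE2, had counts of 3, 2 and 1 in wild-type replicates 1 to 3 and of 0 in every knockout library. A count of 0 allows up to 0.00501% of the 59917 knockout counts. The CC forms of 16 nt had 13 counts in the Leu-CAG and 12 in the Leu-CAA type, and those of 18 nt had 2 in each. No leucine member over 20 nt was listed, and among all 3' tRFs 3 fragments with 3 counts in total were longer than that. Just outside the rule lay tRF-16-HRERXFD, which shares the Leu-CAG bases but ends in a lone C, with 0, 1 and 2 wild-type and 0, 0 and 1 knockout counts. The nearest other 3' tRF, tRF-18-HREZXFD2, differs from the Leu-CAA type at 1 base and had 1 count.

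Library totals ran from 15742 to 32754 counts, a low depth that limits rare members, and since reads carry no molecular identifiers, intervals of shares cover counting error only. Within each group, no pair of libraries agreed to within counting noise, with a chi-square per degree of freedom of 2.69 to 12.6. Wild-type replicate 3 stood apart, with r of log2 CPM (counts per 1000000) across fragments of 0.775 and 0.772 to the other wild-type libraries, which had 0.861 between them. Differences were taken from edgeR's quasi-likelihood fit over all 235 fragments that passed a low-count filter, scaled by TMM. They are log2 fold changes, knockout minus wild-type, with a standard error (SE).

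In wild-type cells both types were dominated by the 18 nt form that begins at position 59, and the Leu-CAA type was the more abundant. The Leu-CAA type held counts of 557, 338 and 368 in wild-type replicates 1 to 3, which is 1.95% ± 0.227 of all counts (SD, n = 3). The Leu-CAG type held 343, 185 and 202 counts, or 1.11% ± 0.0646 (SD, n = 3). In each of the 6 libraries the Leu-CAG type was the smaller, at 35.1% to 43.8% of the counts of both. Together the types made up 20.6% ± 0.961 of wild-type 3' tRF counts (SD, n = 3).

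In the knockout both types were lower, at 29.0% of the wild-type mean CPM for the Leu-CAA and 31.1% for the Leu-CAG type. The Leu-CAA type held 99, 102 and 144 counts in knockout replicates 1 to 3, or 0.579% ± 0.0892 of all counts (SD, n = 3). The Leu-CAG type held 77, 56 and 78 counts, or 0.352% ± 0.0162 (SD, n = 3). Every knockout library was below every wild-type library for both. On the TMM scale the Leu-CAA sum went from 19710 ± 2506 to 5707 ± 731 CPM (SD, n = 3), and its log2 fold change was -1.77 (SE 0.235). The Leu-CAG sum went from 11234 ± 1416 to 3489 ± 260.4 CPM (SD, n = 3), and its log2 fold change was -1.66 (SE 0.229). Without its anchor, the remaining Leu-CAA members together had a log2 fold change of -1.76 and the remaining Leu-CAG members -1.56.

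Most other 3' tRFs were lower as well. Of the 8 members tested, 7 were called lower at an edgeR adjusted p under 0.05, where 28.1% of all tested fragments and 84.8% of the 33 tested 3' tRFs outside the rule were called lower. In either direction 53.6% of all tested fragments were called. In all 8 tested members every knockout library lay under every wild-type library, as in 30.6% of all tested fragments and 87.9% of the other 3' tRFs. The median log2 fold change was -1.72 over these 8 members, -1.47 over the 33 other 3' tRFs and -0.01 over all tested fragments. Nothing particular to leucine can be read from these counts, since the choice used the contrast. The 3' tRFs outside the rule were not sorted by parent tRNA and may include other leucine fragments. The member not called was tRF-17-HRERXFJ. As a share of 3' tRF counts, the Leu-CAA type was at 12.1%, 13.8% and 13.4% in wild-type and at 9.76%, 11.6% and 10.7% in knockout replicates 1 to 3, without overlap. The Leu-CAG type was at 7.43%, 7.56% and 7.37% in wild-type and at 7.59%, 6.36% and 5.79% in knockout libraries, and the groups overlapped. Both shares rest mostly on the anchors, chosen for being lower in the knockout, so they are descriptions only.

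Among the CCA forms of the Leu-CAA type the fold changes lay close together. The anchor tRF-18-HRE9XFD2 had counts of 402, 248 and 272 in wild-type replicates 1 to 3 and of 73, 69 and 108 in knockout replicates 1 to 3. Its mean CPM in the knockout was 28.5% of that in wild-type. The form a base shorter, tRF-17-86N7O52, had wild-type counts of 59, 36 and 32 and knockout counts of 11, 12 and 14, a log2 fold change of -1.67 (SE 0.313). The shortest, tRF-16-K5YY01B, had wild-type counts of 62, 40 and 36 and knockout counts of 8, 17 and 11, a log2 fold change of -1.81 (SE 0.376). In all 3 forms the highest knockout library was below the lowest wild-type library on the CPM scale. The same held in 87.9% of the other tested 3' tRFs and in 30.6% of all tested fragments. The standard errors of the 3 forms overlap widely.

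The CCA forms of the Leu-CAG type spread further, with wide errors. The anchor tRF-18-HRERXFD2 had wild-type counts of 224, 118 and 136 and knockout counts of 43, 38 and 49, a mean CPM of 29.4% of wild-type. For the Leu-CAG form of 17 nt that ends in CCA the wild-type counts were 51, 28 and 29 and the knockout counts 11, 5 and 7, and the log2 fold change of -2.11 (SE 0.359) was the lowest of the tested members. For tRF-16-K58Y01B the wild-type counts were 42, 24 and 20 and the knockout counts 13, 5 and 10, a log2 fold change of -1.51 (SE 0.382). In these forms every knockout library was under every wild-type library on the CPM scale, as in 87.9% of the other tested 3' tRFs and 30.6% of all tested fragments. The 95% intervals of the last pair of fold changes, -2.90 to -1.32 and -2.35 to -0.67, overlap.

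Among the forms that lack the last A, the fold changes of the types lay further apart, with 95% intervals that overlap. The Leu-CAA form tRF-17-HRE9XFJ had wild-type counts of 26, 10 and 23 and knockout counts of 5, 3 and 9. Its log2 fold change of -1.66 (SE 0.416, 95% interval -2.58 to -0.75) was near that of its CCA partner with the same first base. The Leu-CAG form tRF-17-HRERXFJ had wild-type counts of 19, 15 and 12 and knockout counts of 9, 6 and 11, a log2 fold change of -0.75 (SE 0.384, 95% interval -1.59 to 0.10). Its mean CPM in the knockout was 57.3% of that in wild-type. On the CPM scale its groups did not overlap, from 572 to 996 in wild-type and from 355 to 475 in knockout libraries.

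Summed by end, the CCA forms of the 2 types had close fold changes and the CC forms had values further apart. For CCA ends the log2 fold changes were -1.75 (SE 0.232) in the Leu-CAG and -1.77 (SE 0.239) in the Leu-CAA type. For CC ends the values were -0.79 (SE 0.312) in the Leu-CAG and -1.56 (SE 0.415) in the Leu-CAA type. Their 95% intervals, -1.49 to -0.10 and -2.49 to -0.64, overlap. The CC sums rest on few counts, 57 wild-type and 30 knockout counts in the Leu-CAG and 69 and 21 in the Leu-CAA type. With 1 library left out, the Leu-CAG value ran from -0.91 to -0.71 and the Leu-CAA value from -1.80 to -1.28.

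The share of CC ends within a type does not depend on library scaling. In the Leu-CAG type CC ends made up 7.29%, 8.11% and 8.42% of counts in wild-type and 12.99%, 14.3% and 15.4% in knockout replicates 1 to 3, so that every knockout library was higher. The difference of 6.28 percentage points had a two-sided exact permutation p of 0.1, the smallest that 3 against 3 libraries can give, and became 0.70 after adjustment over 7 comparisons of composition. It does not pass. The 95% Wilson intervals of single libraries overlap, at 7.42% to 25.7% in knockout replicate 2 against 5.32% to 13.1% in wild-type replicate 3. In the Leu-CAA type CC ends made up 5.57%, 3.25% and 7.34% in wild-type and 7.07%, 2.94% and 7.64% in knockout libraries, an overlap, with a difference of 0.498 points (exact permutation p of 0.9). The anchors, chosen for their lower counts in the knockout, are CCA forms that begin at position 59, so these shares, and those of start positions below, are not independent of the choice. Among members other than the anchors, the Leu-CAG difference was 15.4 points and the Leu-CAA difference 2.07 points.

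The gap between the types in CC share, Leu-CAG minus Leu-CAA, was 2.55 ± 2.02 points in wild-type and 8.34 ± 2.76 points in the knockout (SD, n = 3). Libraries did not overlap in this gap, which ran from 1.08 to 4.85 points in wild-type and from 5.92 to 11.3 in knockout. The exact permutation p of the difference was 0.1, again the smallest possible, for a comparison added after the values were seen. Counting only fragments that begin at position 59, CC ends were 46 of 524 pooled wild-type counts (8.78%) and 26 of 156 knockout counts (16.7%) in the Leu-CAG type. In the Leu-CAA type they were 59 of 981 (6.01%) and 17 of 267 (6.37%). All other counts at this start are those of the anchors, which were chosen for being lower in the knockout, so these shares are a description only.

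Over all 6 libraries CC ends were more frequent in the Leu-CAG than in the Leu-CAA type. The mean share was 11.1% against 5.63%, higher in 6 of 6 libraries. The paired exact permutation p was 0.03125 (0.125 after adjustment over 4 measures), which does not pass. It is the smallest p that 6 paired libraries can give, and alone among 4 measures it cannot pass after adjustment. These comparisons of the types within libraries were added after the values were seen. They take both genotypes together, though the gap in CC share was 2.55 points in wild-type and 8.34 points in the knockout. The anchors, CCA forms chosen for being lower in the knockout, are counted in these shares, so the comparisons are not independent of the choice. In both types CC ends were less frequent than among the other 3' tRFs in 6 of 6 libraries, where they made up 12.96%, 12.3% and 16.7% of counts in wild-type and 15.6%, 16.02% and 16.9% in knockout libraries. No test is given for the latter, since the anchors were abundant CCA forms by choice. A CC form that begins at position 61 would have 15 nt, under the shortest fragment listed, and over starts at 60 or before the order was the same in every library.

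Starts at position 59 led in both types, and with both ends counted the libraries of the 2 genotypes overlapped at each start. Starts at position 59 made up 72.0% ± 1.21 of Leu-CAG counts in wild-type and 74.3% ± 5.95 in the knockout (SD, n = 3). In the Leu-CAA type they made up 77.8% ± 2.08 and 76.9% ± 5.58 (SD, n = 3). Starts at 60 held 15.1% to 16.8% of Leu-CAG and 9.78% to 11.3% of Leu-CAA counts in wild-type libraries, against 10.3% to 15.6% and 10.4% to 13.1% in the knockout. With CCA ends only, starts at 60 held 14.4% to 15.1% of Leu-CAG counts in wild-type and 8.93% to 14.3% in the knockout. These Leu-CAG groups did not overlap, those of the Leu-CAA type did, and neither was tested. Starts at 61 held 11.7% ± 1.61 and 10.9% ± 1.04 in wild-type, and 12.9% ± 3.98 and 10.8% ± 5.09 in the knockout (SD, n = 3). In the Leu-CAA type the wild-type shares at 60 and 61 did not differ beyond their spread. Between the types, starts at 60 were 3.16 points more frequent in the Leu-CAG type, higher in 5 of 6 libraries, with a paired exact permutation p of 0.0625 (0.125 after adjustment).

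Among other 3' tRFs starts at position 60 were the most frequent. They held 50.6% ± 1.44 of counts there and starts at 59 held 29.7% ± 1.29 in wild-type libraries (SD, n = 3). The share of starts at 59 was higher in both leucine types than among other 3' tRFs in 6 of 6 libraries, by 34.9 to 48.8 points in the Leu-CAG and by 40.8 to 50.7 points in the Leu-CAA type, given without a test because the anchors are 18 nt forms. The share of starts at 60 or 61 differed between genotypes by -2.05 points in the Leu-CAG type (exact permutation p of 0.6) and by 0.970 points in the Leu-CAA type (p of 0.9). Without knockout replicate 2 the signs changed, to 0.0653 and -1.96 points, and the Leu-CAA value was also negative (-0.0450) without wild-type replicate 3. Among members other than the anchors the Leu-CAG difference was -12.9 points. Without the anchor, only the CC form tRF-17-HRERXFJ begins at position 59, so this value is not separate from the CC share above. The Leu-CAG share of the counts of both types averaged 36.3% ± 1.56 in wild-type and 38.1% ± 4.89 in the knockout (SD, n = 3, exact permutation p of 0.8). Both types rest mostly on their anchors, each chosen for being lower in the knockout. This share is thus not independent of the choice, and nothing is concluded from its test.

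Fragments from the 5' end of the same tRNA were linked through the acceptor stem. The first 7 bases of 17 5' tRFs pair with the 7 bases before base 73 in both types, allowing a G:T pair, and the 17 share their first 15 bases. Position 6 is G in these fragments, opposite C in the Leu-CAG and T in the Leu-CAA type at position 67. They fall into 13 with C and 4 with T at position 16, a D-loop position where a T, uridine in the RNA, is a base that DUS1L can modify, and the most abundant of each are shown with the 7 stem bases and base 16 in capitals.
tRF-25-SP5830MMUK: GTCAGGAtggccgagCggtctaagg
tRF-16-SP5830E: GTCAGGAtggccgagT
All 4 fragments with T matched the start of TRL-CAA1-1 (GRCh38, chromosome 6, 28896223 to 28896328, minus strand, a tRNA gene), of which RefSeq promoter sequence covered 49 bases. The start of none of the other Leu-CAG and Leu-CAA genes was covered, and genes of other anticodons were not examined, so the 13 with C were not placed, though the C form is known from tRNA-Leu-CAG. Other tRNA genes can share either stretch.

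These 5' fragments did not differ between genotypes past the threshold. Summed, they had counts of 72, 28 and 55 in wild-type and of 30, 29 and 45 in knockout replicates 1 to 3. On the CPM scale the groups overlapped, from 1860 to 2620.4 in wild-type and from 1476 to 1944 in knockout libraries. The log2 fold change of the sum, a sum added after the values were seen, was -0.44 (SE 0.260, 95% interval -1.02 to 0.13; adjusted p = 0.172 in edgeR). It lay between -0.65 and -0.22 under the alternatives run, with adjusted p from 0.0785 to 0.561. Only tRF-25-SP5830MMUK was abundant enough to test alone, with 30, 8 and 14 wild-type and 11, 7 and 15 knockout counts and a log2 fold change of -0.50 (SE 0.385, 95% interval -1.35 to 0.35; adjusted p = 0.298 in edgeR). Of all tested 5' tRFs and 5'-halves, 42.5% were called in either direction. The fragments with C at position 16 had 56, 21 and 47 wild-type and 21, 22 and 40 knockout counts, and those with T had 16, 7 and 8 and 9, 7 and 5.

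Per 5' fragment, fewer leucine 3' fragments were counted in the knockout. The ratio of the 3' counts of both types to these 5' counts was 12.5, 18.7 and 10.4 in wild-type and 5.87, 5.45 and 4.93 in knockout replicates 1 to 3, without overlap. The 3' side of this ratio was chosen for its difference, so the ratio is a description. It is a ratio of counts and not of molecules. Internal fragments gave no reading of the same tRNA, since the 2 that share 14 or more bases with a member had 2 counts in all.

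The closest tested 3' tRFs outside the rule showed similar values. These were tRF-18-HR05X6D2 and tRF-16-K5LYK1B, which differ from both types at 3 of the 13 bases and whose parent was not identified here.
tRF-18-HR05X6D2: atcccaccactgccacca
tRF-16-K5LYK1B: cccaccgctgccacca
The first had wild-type counts of 76, 37 and 46 and knockout counts of 23, 10 and 25, a log2 fold change of -1.35 (SE 0.300; adjusted p = 0.00414 in edgeR). The second had 29, 15 and 19 and 5, 5 and 11 counts, a log2 fold change of -1.47 (SE 0.376; adjusted p = 0.00819 in edgeR), and was not called without knockout replicate 1 (-1.16), without the low-count filter (-1.49) or with the DESeq2 Wald test (-1.39). Both lie beside the members in value, at a lower mean count than the anchors. They also lie near the median of -1.47 over the 33 tested 3' tRFs outside the rule, of which 84.8% were called lower. Their values are thus not particular to fragments close in sequence. All 41 tested 3' tRFs were also ranked by log2 fold change from the lowest. The 8 members stood at places 4, 7, 8, 9, 12, 13, 22 and 38. Below the lowest member were 3 fragments outside the rule. The anchors were chosen by this same contrast, so the places of the members are a description only.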

How the data were processed

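Small RNA of A375 cells was extracted with TRIzol, made into size-selected libraries and sequenced single end on an Illumina NextSeq, per the labels' protocols. The deposited values are whole-number counts of reads per tRNA fragment, which the authors obtained by MINTmap, per the labels. FastQC, cutadapt, DESeq2 and GRCh38 (hg38) are named in the submitters' processing notes, with no version (not given in the sources used here).

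Fragment names were decoded into sequences with Python 3.11.15, and members were found by sequence. Members and lists were chosen with earlier results of these data known. Counts were fitted in R 4.3.3 with edgeR 4.0.16 (filterByExpr with a minimum count of 10, TMM, quasi-likelihood test, Benjamini-Hochberg adjustment over all 235 fragments, threshold 0.05). Type sums were fitted in the same way, in place of their members. Shares were compared by two-sided exact permutation tests over libraries. Members with a mean of 10 or more counts, the anchors and the longest member of each type were named or, for the Leu-CAG form of 17 nt ending in CCA, given by length, end and sequence, and linked or near fragments where they were tested or most abundant of their form. Alternatives were DESeq2 1.42.0, other scalings, no filter, a replicate block and leaving out each library. The edgeR fit was tested on simulated data, and the other steps were not. The simulation gave every fragment the same dispersion, so it does not show how the fit performs at the spread between these libraries.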

Additional observations from a re-analysis of the deposited data

How the results depend on the processing

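Of 278 alternative values, 257 were scored as kept. A fold change had to keep its direction and its side of the threshold. Shares could change in direction only, since their smallest exact permutation p of 0.1 lies above the threshold. The count of members called has no direction, and 5 against 7 was scored as kept. The Leu-CAG and Leu-CAA sums rest mostly on the anchors, which were chosen with this contrast, so their values under other settings show nothing about stability. Of the 8 tested members, 5 were called lower with the DESeq2 Wald test and 6 without knockout replicate 1, against 7 (tRF-16-K58Y01B at -1.40 and tRF-17-HRE9XFJ at -1.58 were not called with the DESeq2 Wald test). Over all fragments 66 of 235 were called lower, against 42 of 3443 without a filter and 31 of 235 with the DESeq2 Wald test. Without wild-type replicates 1, 2 and 3 in turn the numbers were 50 of 254, 58 of 278 and 75 of 270. Without knockout replicates 1, 2 and 3 they were 28 of 247, 46 of 281 and 46 of 253. Among 3' tRFs outside the rule the main fit called 28 of 33 lower. With the DESeq2 Wald test it was 16 of 33, and without knockout replicate 1 it was 17 of 41. DESeq2 size factors moved the median log2 fold change of all fragments from -0.01 to 0.10.

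The Leu-CAA CC sum was called with all libraries and not with the DESeq2 Wald test (-1.54) or without knockout replicate 1 (-1.49) or 2 (-1.28), and ran from -1.80 to -1.28 with 1 library left out, while the Leu-CAG CC sum ran from -0.91 to -0.71 and was called only without wild-type replicate 3 (-0.91). With 1 library left out, genotype differences in points changed sign for Leu-CAA CC ends (-0.568 to 1.97), for starts at 60 or 61 (-5.45 to 0.0653 in Leu-CAG, -1.96 to 3.23 in Leu-CAA), for Leu-CAA starts at 57 or 58 (-0.279 to 0.212) and for the Leu-CAG share of both types (-1.02 to 3.29). Leu-CAG starts at 57 or 58 ran from -0.437 to 0. Without the 18 nt anchors, starts at 60 or 61 differed by -12.9 points in Leu-CAG and by -0.110 in Leu-CAA. The only starts at 59 are then CC forms, so these values are not separate from the CC shares. The share of Leu-CAG CC ends kept its sign, from 5.70 to 15.4. The cause of these changes was not tested. Starts at 57 or 58 gave no value among members that passed the filter.

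Replicate numbers are shared by the groups, but same-numbered libraries correlated at 0.28, 0.01 and 0.11 after removal of group means, and wild-type replicate 2 correlated best with knockout replicate 3. With the replicate block, 116 of 235 fragments were called against 126, and the Leu-CAA sum was -1.77 and the Leu-CAG sum -1.66. The block changed no other call given here. At totals of 15742 to 32754 counts, members with few counts cannot be compared between genotypes.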
